A study of Homo sapiens with 4 samples.

Results

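Imprinted genes outside the short arm of chromosome 11 were examined in ATAC-seq peak lists of BCPAP cells, an established human papillary thyroid cancer line. The set comprised 10 genes (DLK1, MEG3, PEG3, NDN, SNRPN, GNAS, MEST, PEG10, PLAGL1 and GRB10) in 9 fixed windows of hg19, since DLK1 and MEG3 shared one. Every peak that overlapped a window was taken. The 4 lists merged to 160 regions in the windows, of 373425 regions on chromosomes 1 to 22 and X. Libraries were prepared in duplicate from untreated cells and from cells given 5-azacytidine. This cytidine analogue traps DNA methyltransferases, and CpG methylation is lost as the cells divide. The labels state neither the dose nor its duration, nor whether the duplicates are separate cultures, so p-values measure only a spread that could be technical. Pairs of values are given in the order replicate 1, replicate 2. All 4 libraries come from this 1 cell line, and peak lists do not tell the parental alleles apart.

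An imprinted gene is expressed mainly from the copy inherited from one parent. The copies are marked by methylation laid down in the germ line at an imprinting control region, which is then kept through cell division by the maintenance methyltransferase DNMT1 and by the zinc finger protein ZFP57. ZFP57 binds the methylated hexamer TGCCGC. In the thyroid, GNAS encodes the G protein subunit that couples the thyrotropin receptor to adenylyl cyclase, and it is expressed there mostly from the maternal copy.

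Promoter sequences from RefSeq (GRCh38.p14) were available for 7 of the 10 genes, as 29 entries of 250 bases before to 50 bases after a transcript start. TGCCGC, or GCGGCA on the other strand, was present in 13 of these 29 entries (44.8%), and in 16.7% of the 35116 promoters in the table. Each of the 7 genes had at least 1 entry with it, but a gene with more entries has more places for a match. GNAS had it in 1 of 6 entries, GRB10 and PLAGL1 in 1 of 5 each, and SNRPN in 2 of 4. MEST had it in 4 of 5, MEG3 in 3 of 3 and NDN in its 1 entry. The share of genes with a match over the whole table is not given. Of the entries, 5 overlapped the one before it of the same gene, so 1 match can be counted in more than 1 entry. The hexamer contains a CpG, and the 29 entries had a median of 18 CpGs, against 14 over all promoters. The difference in shares was not tested with overlaps and CpG number taken into account. The genes with 2 or more matches in 1 entry were MEST, PLAGL1 and SNRPN, and their best entries are shown with the hexamers in capitals. Of all promoters, 2.8% held 2 or more. A match is a run of letters, and binding was not measured.

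MEST, chr7:130491835-130492134, plus strand, with 3 matches, of which the first and second overlap, and 25 CpGs:
MEST promoter: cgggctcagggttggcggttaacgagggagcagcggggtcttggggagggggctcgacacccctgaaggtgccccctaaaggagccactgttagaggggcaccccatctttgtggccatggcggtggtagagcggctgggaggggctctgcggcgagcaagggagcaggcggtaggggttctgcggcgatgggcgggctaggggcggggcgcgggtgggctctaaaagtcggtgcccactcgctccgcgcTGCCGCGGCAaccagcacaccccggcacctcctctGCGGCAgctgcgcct
PLAGL1, chr6:144008210-144008509, minus strand, with 2 matches and 39 CpGs:
PLAGL1 promoter: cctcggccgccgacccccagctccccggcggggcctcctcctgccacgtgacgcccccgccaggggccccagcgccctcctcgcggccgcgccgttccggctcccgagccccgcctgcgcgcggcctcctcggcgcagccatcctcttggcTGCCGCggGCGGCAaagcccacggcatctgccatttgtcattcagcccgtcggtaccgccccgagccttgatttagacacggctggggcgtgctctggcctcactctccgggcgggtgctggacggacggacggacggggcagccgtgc
SNRPN, chr15:24954737-24955036, plus strand, with 2 matches and 18 CpGs:
SNRPN promoter: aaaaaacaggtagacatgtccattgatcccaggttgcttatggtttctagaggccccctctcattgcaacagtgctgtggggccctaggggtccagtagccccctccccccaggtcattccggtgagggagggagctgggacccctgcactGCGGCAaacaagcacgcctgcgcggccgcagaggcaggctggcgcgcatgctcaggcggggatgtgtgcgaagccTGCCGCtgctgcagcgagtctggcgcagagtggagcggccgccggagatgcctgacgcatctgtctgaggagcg

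These positions are on GRCh38 and were not set against the hg19 positions given in the rest of the text. No hg19 annotation was used, so the exon, intron or promoter at a peak is not stated.

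The lists held 221110 and 223345 peaks without treatment and 259572 and 245142 with it. Read numbers are unknown. Peak strength is given as summit coverage, a whole number derived from the steps of the authors' fold enrichment. It is taken to count what lay over the summit, but whether 1 unit is a read or a fragment is not stated. The weakest listed peaks had a coverage of 4 in every list. Treated replicate 1 had the longest list and the lowest peaks: its median coverage in the 105414 regions present in all 4 lists was 11, against 23, 18 and 16 in the others. For comparisons between libraries, coverage was therefore divided by that median, and the result is called scaled coverage.

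The imprinted windows held 88 and 99 peaks untreated and 121 and 93 treated. The groups overlapped, because treated replicate 2 lay between the untreated libraries. Means were 107 ± 19.8 (SD, n = 2) with 5-azacytidine and 93.5 ± 7.78 (SD, n = 2) without it, a log2 ratio of 0.19 (exact two-sided permutation p = 0.667 over the 6 assignments). The smallest p that 2 libraries against 2 can give is 0.33. Without treated replicate 1 the log2 ratio was −0.008. As a share of each list, the windows held 4.23 ± 0.61 of every 10000 peaks in treated and 4.21 ± 0.32 in untreated cells (SD, n = 2 each; exact permutation p = 1.0), and the whole lists had a log2 ratio of peak number of 0.18.

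Windows differed more from each other than treated from untreated libraries did. GNAS was densest, with a mean of 29.8 peaks per 100 kb over the 4 lists, followed by DLK1/MEG3 with 14.7. PEG10, PEG3, MEST, PLAGL1 and GRB10 had 6.25 to 8.89, and SNRPN had 1.45. The NDN window was empty in every list. In 3 of the 8 windows with peaks both treated lists held more peaks than both untreated lists (GNAS, PLAGL1 and GRB10), and in 2 both held fewer (PEG3 and MEST). Among 25899 windows of 100 kb across the genome, 19.7% held more and 10.2% fewer in this sense. The imprinted windows are of other lengths, 40 to 240 kb, and 8 are too few to call their shares different.

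**Figure D1:**
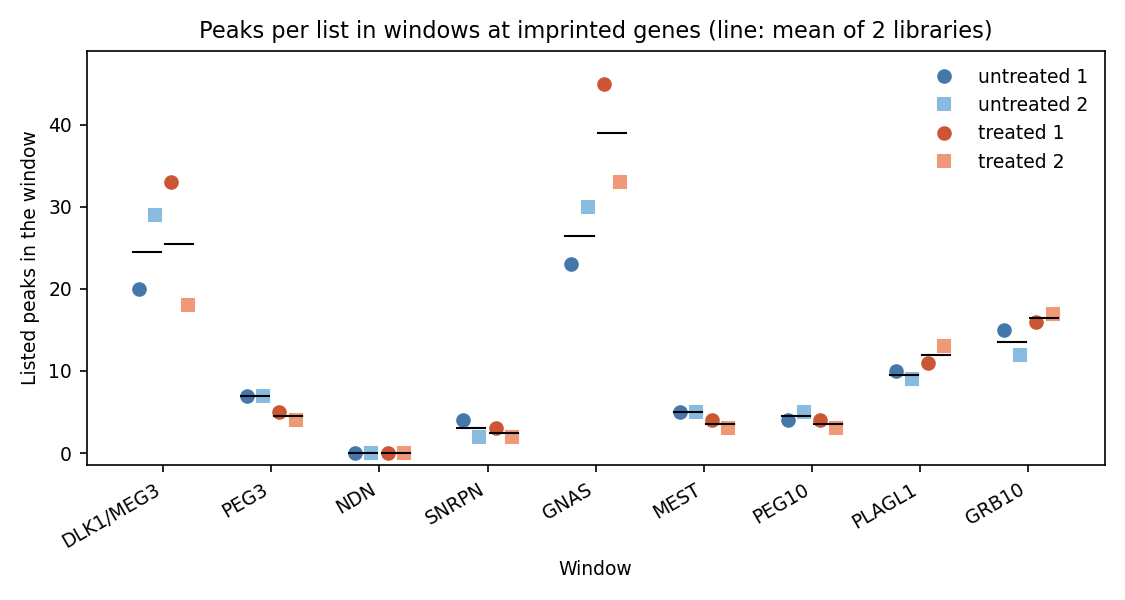
Number of listed peaks (vertical axis) in each of the 9 windows (horizontal axis), with 1 point per library and a line at the mean of 2 libraries. GNAS reached 45 and 33 peaks in the treated lists against 23 and 30, while at DLK1/MEG3 the high libraries were untreated replicate 2 with 29 and treated replicate 1 with 33.

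Regions listed in the treated pair but in no untreated list are called gained, and regions listed in the untreated pair alone are called lost. The windows held 8 gained regions, or 5.0% of 160, where 4.21% of all regions were gained. They held 6 lost regions, or 3.75%, where 3.35% of all regions were lost. Both shares were near the background, so imprinted windows did not stand out. The classes that pair 1 untreated with 1 treated list held 2 or 3 regions each, or 1.25% to 1.88%, against 1.69% to 2.42% of all regions. Gained regions were weak, with a coverage of 4 to 9 in treated replicate 1 and 4 to 7 in treated replicate 2. When each list of the pair had to reach a coverage of 10, no region in the windows was gained or lost, against 0.139% of all regions gained and 0.26% lost. With lists shortened to equal length there were 4 gained and 9 lost regions, so more were then lost than gained. The shares over all regions at that length are not given, and why the balance shifted was not tested. For 3 of the 8 gained regions, all at GNAS, an untreated list skipped a peak number between its nearest peaks on either side. A called peak may thus have been removed before deposit, at an unknown place in that gap. Of the 3 regions, 2 lay in the same gap of untreated replicate 2. No treated list skipped a number in this way around any of the 6 lost regions.

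Regions found in all 4 lists carry the stronger signal. There were 40 of them, or 25% of the regions in the windows, against 28.2% of all regions. Their median log2 ratio of scaled coverage, treated over untreated, was −0.02, and the median over all 105414 shared regions was 0.06, with the middle 50% of regions between −0.29 and 0.47. Per library, the median scaled coverage of the 40 regions was 0.891 and 0.889 in untreated and 0.909 and 1.0 in treated cells (exact permutation p = 0.33). The log2 ratio of the group means of these medians was 0.10, while the median of the ratios was slightly below 0. The sign thus depended on the summary used. Scaled coverage was higher in both treated than in both untreated libraries in 5 of the 40 (12.5%), against 27.2% of all shared regions. It was lower in both in 10 (25%), against 22.2% of all shared regions. With the authors' peak score the counts were 4 (10%) and 11 (27.5%), against 24.3% and 25.7% of all shared regions. Without scaling they were 1 (2.5%) and 19 (47.5%), against 4.39% and 47.6%, so the share of lower regions was that of all shared regions.

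The split into higher and lower regions went with peak strength across the genome. For regions at the listing floor in every list, the scaling fixes it in advance. A shared region needs a coverage of at least 4 in every list. Division by medians of 23 and 18 (untreated) and 11 and 16 (treated) sets this floor higher in both treated libraries. A region with a coverage of 4 in every list therefore counts as higher. How far the floor enters at other weak shared regions was not tested. Among shared regions with a mean coverage under 10, scaled coverage was higher in both treated libraries in 48% and lower in 3.4%. At a mean coverage of at least 10 these shares were 21.7% and 27.2%. In the windows, 33 of the 40 regions were of the stronger kind, as were 83199 of all 105414 shared regions. Of these 33, 3 were higher and 10 lower. The other 7 were weaker, with 2 higher and 0 lower. The part of peak strength in the counts at imprinted genes was not tested further.

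**Figure D2:**
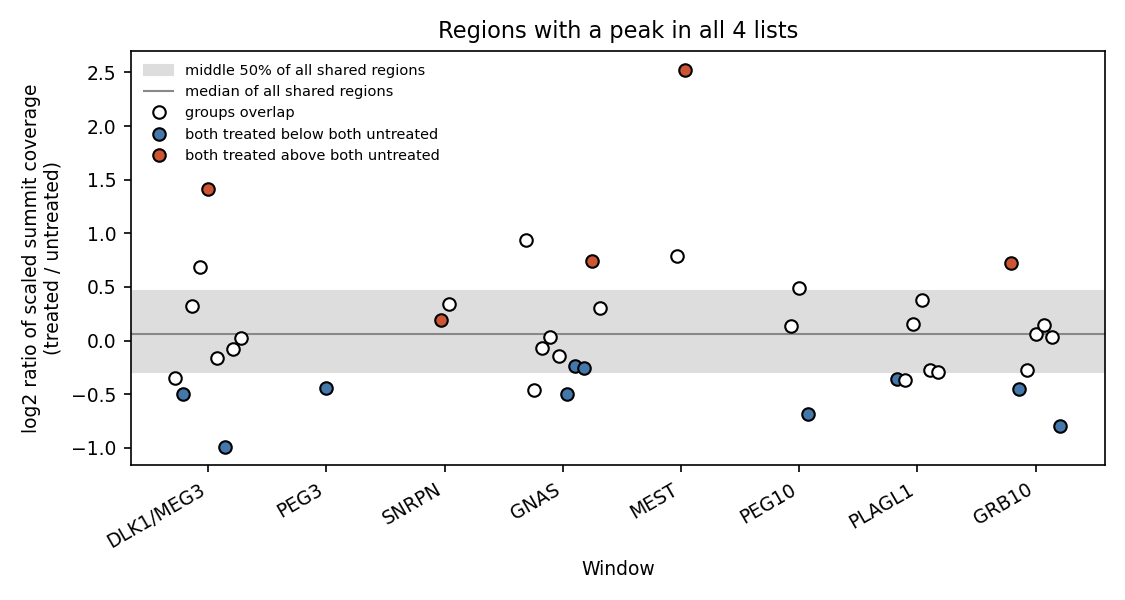
Each point is a region with a peak in all 4 lists, placed by window (horizontal axis) and by the log2 ratio of mean scaled summit coverage, treated over untreated (vertical axis), with the grey band and line showing the middle 50% and the median of all shared regions. One MEST region stands at 2.53, and the 10 regions that were lower in both treated libraries lie between −0.99 and −0.24.

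MEST, a paternally expressed gene for a protein of the alpha/beta hydrolase fold, held the largest ratio of the set. Its window ran on chromosome 7 from 130110000 to 130165000. The region on chromosome 7 from 130128832 to 130129397 had a coverage of 4 and 5 in the untreated pair, and of 19 and 14 in the treated pair. It was thus at or next to the listing floor in untreated cells and well above it in both treated libraries, even though treated replicate 1 had the lowest peaks in general. In treated replicate 1, 88.5% of all listed peaks had a lower coverage, and in treated replicate 2 67.4%. In untreated replicate 2 only 6.26% did, and none did in untreated replicate 1. The log2 ratio was 2.53 on scaled coverage, 1.87 without scaling and 3.21 with the authors' peak score. It ranged from 1.95 to 2.94 when each library was left out in turn. Without scaling, 28 of the 105414 shared regions had a larger ratio. The region was picked for its ratio, so these values are a description. All 4 intervals lay within 566 bp, each of them 500 bp wide.

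The MEST window held 1 other shared region, from 130125827 to 130126669, with 12 and 10 in the untreated pair and 6 and 21 in the treated pair. Its scaled coverage was 0.522 and 0.556 untreated and 0.545 and 1.31 treated, a log2 ratio of 0.79 in the same direction, with treated replicate 1 between the untreated libraries. Without scaling the ratio was 0.30. The region nearest to the one with the largest ratio, 130128222 to 130128721, lay 110 bp away. It was listed in treated replicate 1 alone, with a coverage of 5, and untreated replicate 2 lacked a peak number in the gap around it. That from 130126733 to 130127232 was listed in untreated replicate 1 alone, with 6. On the other side, the region from 130130960 to 130131523 had 10 and 9 in the untreated pair, 6 in treated replicate 1 and no peak in treated replicate 2. The region from 130131609 to 130132279 had 10 and 5 in untreated cells, 4 in treated replicate 2 and no peak in treated replicate 1. The list of treated replicate 1 lacked a peak number in the gap around it. Listed peaks in the whole window numbered 5 and 5 without and 4 and 3 with 5-azacytidine, a log2 ratio of −0.51 (exact permutation p = 0.33). The number of MEST peaks therefore moved the other way from the scaled coverage of its 2 shared regions. Chromosome 7 as a whole had a log2 ratio of peak number of 0.03.

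**Figure D3:**
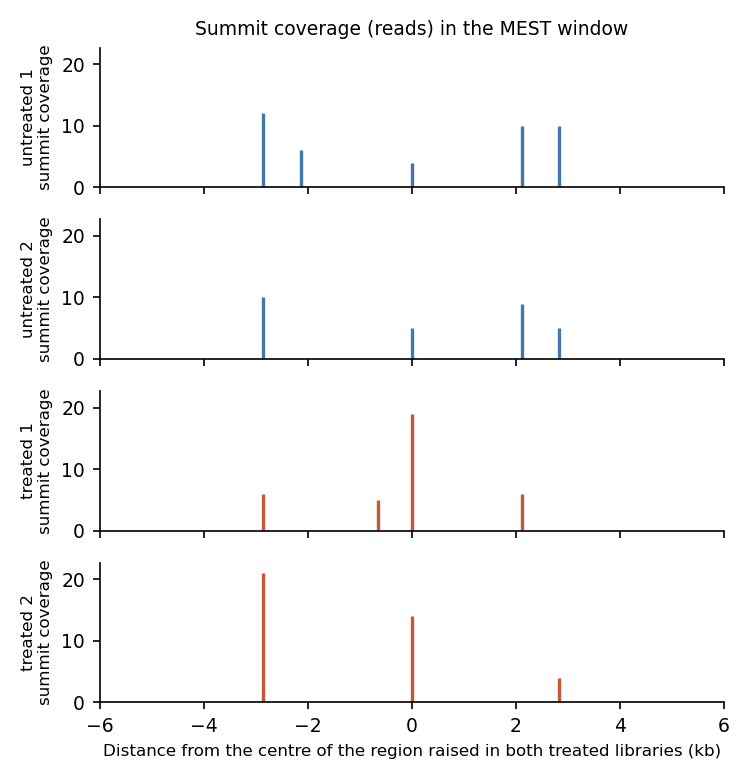
Summit coverage (vertical axis) of each region in the MEST window by distance in kb from the centre of the region that was higher in both treated libraries (horizontal axis), 1 panel per library. The central line is 4 and 5 in the untreated and 19 and 14 in the treated libraries, while the unscaled line of the other shared region is 12 and 10 in the untreated and 6 and 21 in the treated libraries.

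GNAS, with its several promoters used by one or other parental copy, had 23 and 30 peaks untreated and 45 and 33 in the treated pair. The window ran on chromosome 20 from 57395000 to 57505000. Both treated lists were above both untreated lists, at a log2 ratio of 0.56 (exact permutation p = 0.33). Chromosome 20 as a whole moved in the same direction, with 8582 and 10230 against 14123 and 10752 peaks and a log2 ratio of 0.40. Part of the difference lay in regions of single lists, which numbered 2 and 8 for untreated and 13 and 8 for treated replicates 1 and 2. Among peaks with a −log10 q of 5 or more, the ratio of peak number turned to −0.51 on the log2 scale. At that q the windows together had −0.437 for peak number and −0.197 for their share of each list, so whole lists moved in the same direction.

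The strongest GNAS region, chromosome 20 from 57450568 to 57451898, had a coverage of 118 and 105 in the untreated pair and 46 and 57 in the treated pair. It was the highest region of all windows in every library. Scaled coverage was lower in both treated libraries, with a log2 ratio of −0.50. The neighbouring region from 57463643 to 57464538 had the same order, with 57 and 52 against 26 and 35 (log2 ratio −0.24). So did that from 57465314 to 57467986, with 38 and 33 against 15 and 25 (−0.25). The latter was 2673 bp wide, with 4 peaks in each list. At the other end of the scale, the region from 57476232 to 57477625 was counted as higher in both treated libraries with a coverage of 5, 5, 5 and 6. There the log2 ratio was 0.74 with scaling and 0.14 without, so the raw difference was 1 unit of coverage. At 57408922 to 57409465 the coverage was 8 and 10 in untreated cells and 6 and 19 in treated cells, and the groups overlapped.

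All 4 gained regions at GNAS were low. The strongest, from 57412747 to 57413986, had 9 and 6 in the treated pair, and that from 57410325 to 57410867 had 5 and 7. Both lie within 6 kb of the region just named, and untreated replicate 2 lacked a peak number at each. The others were 57490491 to 57491302, with 6 and 6, and 57440493 to 57441477, with 5 and 4. Around the first, both untreated lists skipped a number somewhere between their nearest peaks, and around the second neither did. The window had no lost region. Its 4 gained regions were 7.02% of its 57 regions. Gained regions made up 5.32% of regions on chromosome 20 and lost regions 1.88%.

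DLK1 encodes a transmembrane protein related to Notch ligands that restrains adipocyte differentiation and is expressed from the paternal copy, and MEG3 is a long non-coding RNA expressed from the maternal copy. Their window, chromosome 14 from 101175000 to 101345000, held 20 and 29 peaks in the untreated pair and 33 and 18 in the treated pair. The high libraries were 1 of each group, and means were 24.5 ± 6.36 untreated and 25.5 ± 10.6 treated (SD, n = 2 each; exact permutation p = 1.0). The same 2 libraries held most regions found in a single list, with 9 in untreated replicate 2 and 16 in treated replicate 1, against 1 and 2 in the others.

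The strongest region of this window, chromosome 14 from 101213205 to 101214228, had a coverage of 68 and 62 untreated and 25 and 36 treated. Its scaled coverage was lower in both treated libraries (log2 ratio −0.50). The lowest ratio of all shared regions in the windows was also here, at 101282069 to 101282643, with 27 and 15 against 7 and 6, a log2 ratio of −0.99 with scaling and −1.69 without. It ranged from −1.42 to −0.66 when each library was left out. In the other direction, the region from 101256010 to 101256804 had 7 and 5 in the untreated pair and 6 and 16 in the treated pair. It counted as higher in both after scaling (log2 ratio 1.41), but its raw coverage in treated replicate 1 lay between the untreated values.

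Of the 6 lost regions, 4 were in the DLK1/MEG3 window, or 8.16% of its 49 regions, where 3.03% of regions on chromosome 14 were lost. Its 2 gained regions were 4.08%, against 4.19% on the chromosome. These counts are too small to call the window different. That from 101328575 to 101329145 had a coverage of 19 and 6 in the untreated pair and no peak with 5-azacytidine. Those from 101337940 to 101338587, with 6 and 10, and from 101338761 to 101339759, with 7 and 5, lay 173 bp apart. The last, from 101196258 to 101196805, had 5 and 4. Toward the upper end of the window, the regions from 101315636 to 101316228 (18 and 14) and from 101317354 to 101317902 (11 and 15) had a treated peak in replicate 2 only, at 7 and 8. Gained regions of the window were 101245506 to 101246193, with 8 and 7 in the treated pair, and 101187394 to 101187919, with 4 and 5.

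**Figure D4:**
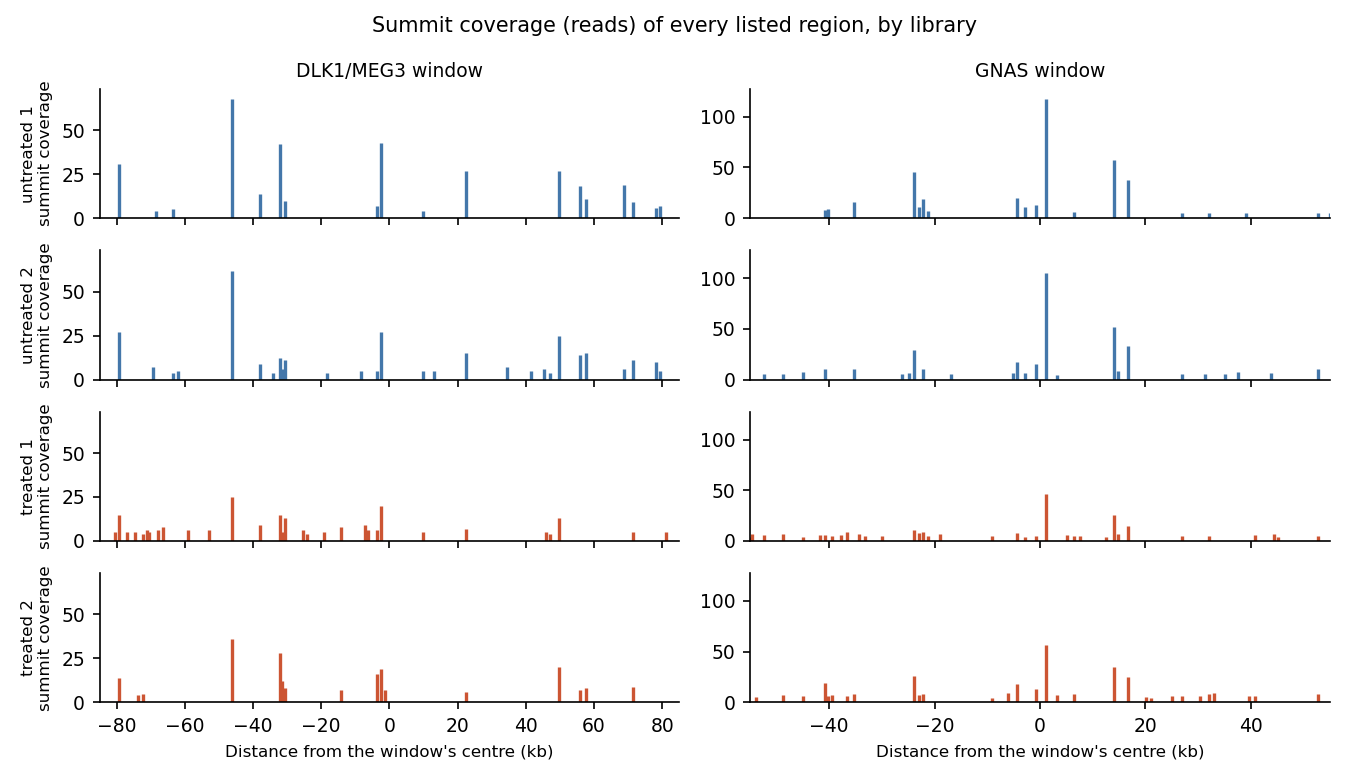
Summit coverage (vertical axes) of every region in the DLK1/MEG3 window (left) and the GNAS window (right) against distance from the window's centre in kb, with 1 row per library. The tallest line at GNAS is 118 and 105 in the untreated and 46 and 57 in the treated pair, and the short lines of treated replicate 1 and untreated replicate 2 are the most numerous at DLK1/MEG3.

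GRB10, an adaptor that dampens insulin and IGF1 receptor signalling and is imprinted by tissue and promoter, had 15 and 12 peaks untreated and 16 and 17 in the treated pair. The window ran on chromosome 7 from 50640000 to 50880000. The groups did not overlap, with a log2 ratio of 0.29 (exact permutation p = 0.33), which turned to −0.28 among peaks with a −log10 q of 5 or more. By mean coverage its strongest region was chromosome 7 from 50788775 to 50789799, with 39 and 26 untreated and 10 and 27 treated, and the groups overlapped. In replicate 1 of each group another region was higher. Lower in both treated libraries was the region from 50874551 to 50875370, with 43 and 21 against 11 and 12 (log2 ratio −0.80, and −1.48 without scaling). So was that from 50732209 to 50732743, with 21 and 20 against 8 and 12 (−0.45). The region from 50678265 to 50678830 was higher after scaling, at a log2 ratio of 0.73, but its raw values of 15 and 12 against 13 and 16 overlapped. There was 1 gained region, 50675379 to 50675898, with 4 and 7, and 1 lost region, 50862942 to 50863872, with 7 and 6.

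PLAGL1 is a paternally expressed zinc finger factor known to slow the cell cycle. Its window, chromosome 6 from 144245000 to 144400000, held 10 and 9 peaks untreated and 11 and 13 in the treated pair, a log2 ratio of 0.34 (exact permutation p = 0.33). The groups were separated by 1 peak, and the ratio turned to −0.70 among peaks with a −log10 q of 5 or more. The strongest region by mean coverage, chromosome 6 from 144384402 to 144386112, had 40 and 26 untreated and 10 and 27 treated, with overlapping groups. In treated replicate 1 the region from 144277000 to 144277674 was higher, at 22. One of its 6 shared regions, 144246151 to 144246676, was lower in both treated libraries, with 17 and 13 against 7 and 8 (log2 ratio −0.36). The single gained region was 144286745 to 144287398, with 7 and 5.

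PEG3, a paternally expressed zinc finger gene, had 7 and 7 peaks untreated and 5 and 4 in the treated pair, a log2 ratio of −0.64 (exact permutation p = 0.33). The window ran from 57300000 to 57370000 on chromosome 19, which as a whole went the other way, at 0.29. Most of these peaks belonged to 1 broad region from 57348275 to 57351551, the widest of the windows at 3277 bp, with 6 and 5 peaks untreated and 4 and 3 in the treated pair. Its highest coverage was 42 and 32 untreated and 12 and 25 treated, and scaled coverage was lower in both treated libraries (log2 ratio −0.44). The adjoining region from 57351656 to 57352426 had 12 and 5 in untreated cells, 9 in treated replicate 2 and no peak in treated replicate 1.

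PEG10, a paternally expressed gene derived from a retrotransposon, had 4 and 5 peaks untreated and 4 and 3 in the treated pair, with overlapping groups (exact permutation p = 0.667). Its window ran on chromosome 7 from 94270000 to 94315000. Its region from 94287016 to 94288016 on chromosome 7 was the second strongest of the windows, with 103 and 76 untreated and 32 and 40 treated. The log2 ratio was −0.69 with scaling and −1.31 without. Directly beside it, the region from 94286076 to 94287005 had 8 and 11 against 10 and 7, and that from 94285247 to 94286001 had 23 and 17 against 9 and 21, with overlapping groups in both. The lost region of this window, 94284400 to 94284919, had 7 and 7 in untreated cells.

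SNRPN and NDN lie in the domain on chromosome 15 that is silent on the maternal copy and whose paternal loss underlies Prader-Willi syndrome. SNRPN encodes a spliceosomal protein, and its 5′ end contains the imprinting control region of the domain. The SNRPN window of 190 kb (25050000 to 25240000) held only 3 regions, in 1 cluster, with 4 and 2 peaks untreated and 3 and 2 treated (exact permutation p = 1.0). The region from 25199868 to 25200415 had 18 and 16 in the untreated pair and 10 and 16 in the treated pair. The region from 25201198 to 25202149 had 14 and 17 against 10 and 17. Scaled ratios were 0.19 and 0.34, while without scaling they were −0.39 and −0.20, so their direction depended on the scaling. The first counted as higher in both treated libraries with scaling, but not with the peak score or without scaling. The peak between them, from 25200465 to 25200964, was listed in untreated replicate 1 alone, with a coverage of 6, and each other list lacked a peak number there. No region of this window was gained or lost.

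NDN encodes necdin, a growth-restraining protein of the MAGE family that is best known from neurons. No peak was listed in its 40 kb window, chromosome 15 from 23910000 to 23950000, in any library. The nearest peak on the lower side was 98.6 and 99.0 kb away in untreated and 10.8 and 99.1 kb in the treated pair. The closest of them had a coverage of 4, the listing floor. On the upper side the distance was 1089 kb in both untreated lists, 460 kb in treated replicate 1 and 1068 kb in treated replicate 2. Untreated replicate 2 and treated replicate 2 lacked a peak number across this stretch, so a peak may have been removed there. An NDN peak was thus not listed with or without 5-azacytidine, in lists whose weakest peaks had a summit coverage of 4.

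The strongest region of each window with peaks, by mean coverage over the 4 lists, was present with and without 5-azacytidine. In GNAS, PEG10, DLK1/MEG3 and PEG3 it was also the highest in every list, and its scaled coverage was lower in both treated libraries. In GRB10, PLAGL1 and MEST the groups overlapped at this region, but another region was higher in at least 1 list, and at GRB10 that of untreated replicate 1 was lower in both treated libraries. At SNRPN the order depended on scaling. Of all shared regions with a mean coverage of at least 10, 27.2% were lower in both treated libraries. The strongest regions of GNAS, PEG10, DLK1/MEG3 and PEG3 had means of 81.5, 62.75, 47.75 and 27.75. The share among all regions of such strength is not given. The strongest regions were picked by unscaled coverage, to which the untreated libraries with their higher peaks added most. That choice can favour lower treated values, which was not tested, and so few windows cannot be set apart from other strong regions. Regions seen in 1 list made up 48.1% of the 160, against 45.9% of all regions. In treated replicate 1 there were 37 of these (23.1% of the 160, against 19.3% of all regions). Of the 37, 81.1% had a coverage of 6 or less, against 83.4% of such regions across the genome.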

How the data were processed

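ATAC-seq was measured in 2 untreated and 2 treated BCPAP libraries. Per the submitters' processing notes Trimmomatic, Bowtie2, Picard, MACS2 and hg19 were used; versions, settings and any shift of read ends are not stated in the sources used here. The deposited peak lists are 1 per library, with nearly all intervals 500 bp wide. The peak score in the deposited lists sums to 1000000 per list. The fold enrichment in the deposited lists came in whole steps (within 0.001 of a step), which gave the summit coverage. The deposited −log10 p and −log10 q only served to filter or rank peaks. Precision is limited by this coverage, since the number of reads is unknown.

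Overlapping peaks (1 bp or more) of the 4 lists were joined, and each region took the highest coverage per list. No test per region was run. Group values were compared by exact permutation over libraries. Regions named were the strongest of each window, the gained and lost ones, and the 5 highest and 5 lowest ratios among shared regions whose groups did not overlap. The other lost, gained and neighbouring regions were added after their values were seen. Alternatives were equal list lengths (221110 peaks), a −log10 q of at least 5, merging within 150 bp or with at least 250 bp shared, peak centres, peak numbers, scaling, the replicate block and leaving out libraries. The members and lists were chosen with earlier results of these data known. The split by a mean coverage of 10 and the 100 kb windows were added after seeing the data. Merging and ratios were tested on simulated lists. Python 3.11.15, numpy 2.4.6, pandas 2.3.3 and matplotlib 3.10.9 were used.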

Additional observations from a re-analysis of the deposited data

How the results depend on the processing

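The planned settings moved counts of gained, lost and shared regions. The log2 ratio of peaks in the windows, 0.19, turned to −0.016 with equal list lengths and −0.437 at a −log10 q of at least 5, and the share of listed peaks, 0.007, turned to −0.197 at that q. Leaving out each library gave −0.008 to 0.372 and −0.149 to 0.148 for these, with a negative sign for both without treated replicate 1 and for the share also without untreated replicate 1. Gained regions, 8 in the full lists, were 4 with equal lengths, 1 at the stricter q, 5 without regions lacking a peak number and 0 where both lists had to reach a coverage of 10. Lost regions, 6 in the full lists, were 9 with equal lengths and also 0 at that coverage. Leaving out any 1 of the 4 libraries gave 11 to 45 gained and 10 to 25 lost regions. Both groups stay in place then, but a region has to meet the requirement in fewer lists. At the stricter q the windows held 61 regions, against 160 in the full lists. Apart from the full lists and the coverage of 10, shares over all regions are not given. These counts therefore do not set the windows apart from other regions. Shared regions higher in both treated libraries were 5 of 40 as reported. At the stricter q they were 2, but only 20 shared regions of the windows were left there. They were 2 when merging needed 250 bp, 1 without scaling and, added after seeing the data, 3 of 33 at a mean coverage of at least 10. Those lower, 10 as reported, were 7 at the stricter q and 19 without scaling (47.5%, against 47.6% of all shared regions). Shares over all shared regions at the stricter q and with that merging are not given. Leaving out each library gave 8 to 15 higher and 17 to 22 lower, again with fewer lists to meet the requirement and with no share over all shared regions given. The median log2 ratio of shared regions stayed below 0 in every setting run. It went from −0.605 without scaling (−0.547 over all shared regions) to −0.007, and from −0.196 to −0.032 without each library. The median scaled coverage per library went the other way in the full lists, with a log2 ratio of 0.101 between group means.

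At the stricter q the peak ratios of single windows turned to −0.474 at DLK1/MEG3, −0.515 at GNAS, −0.7 at PLAGL1 and −0.28 at GRB10. Whole lists moved in the same direction at that q, since the share of listed peaks turned less (−0.197) than their number (−0.437). With equal lengths DLK1/MEG3 turned to −0.263. The SNRPN region from 25199868 turned to −0.387 without scaling. The replicate numbers mark no shared batch in the labels, and deviations of same-numbered libraries correlated at −0.052 over shared regions. With the replicate block the log2 ratio of peaks was 0.185, that of the share 0.002 and the coverage median −0.037, and no direction changed. With 2 pairs, a sign-flip test could not pass a threshold. The cause of these differences was not tested. Regions near a coverage of 4 are at the limit of what the lists can show.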
